A study of Mus musculus with 8 samples.

Results

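The normal mouse pineal gland was described here from 4 RNA-seq libraries of wild type glands, taken shortly after lights on. They are the 4 of the series' 8 libraries whose genotype label is wild type (Normal-11, Normal-21, Normal-22 and Normal-23), and the transgenic libraries were not used. Each library was made from total RNA of the pooled pineal glands of 5 to 7 male C57BL/6 mice, a common inbred strain known for making little melatonin. The mice were 5 months old, were kept under 12 h of light and 12 h of dark, were anaesthetized with ether and carried no transgene. The glands were collected at zeitgeber time 0.5, that is 0.5 h after lights on. A pool averages the glands of its mice, so the spread between libraries is a spread between pools and not between mice. The table lists 53710 genes, of which 21980 are of the Class protein_coding, as FPKM, a fragment count scaled by the length of the transcript and by the size of the library. FPKM is scaled by transcript length, so levels of different genes were compared on that scale. Errors are SD over n = 4 libraries, and where 4 values follow a gene they are for Normal-11, Normal-21, Normal-22 and Normal-23 in that order. With a single group of 4 libraries no test between groups was made, and differences between libraries are descriptions.

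The pineal gland makes melatonin from serotonin at night, when sympathetic nerves release noradrenaline onto its pinealocytes. The enzymes Tph1 and Ddc make serotonin, Aanat acetylates it and Asmt methylates the product to melatonin. Pinealocytes share an origin with retinal photoreceptors, which use a cascade of opsin, transducin, phosphodiesterase 6 (PDE6) and a cyclic nucleotide-gated channel to answer light. The homeodomain factors Otx2 and Crx drive many genes of both cell types.

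One library differed most from the others across the protein-coding genes as a whole. The log2 levels of Normal-22 correlated with those of the other libraries at a Pearson r of 0.882 to 0.950 across 13059 protein-coding genes, while the other pairs lay between 0.948 and 0.974. These ranges overlapped, since Normal-22 with Normal-23 was at 0.950 and Normal-11 with Normal-23 at 0.948. Genes are not independent replicates, and these values only describe the libraries. Xist, the RNA that coats an inactive X chromosome, stood at 0.0404, 0.0193, 13.3 and 0.00480 FPKM, although all mice were stated to be male. The Y-linked genes Ddx3y, Eif2s3y, Uty and Kdm5d were present in all 4 libraries, with 47.7, 40.7, 32.0 and 38.7 FPKM for Ddx3y and 26.1, 19.2, 21.2 and 20.9 FPKM for Uty. The source of the Xist signal in Normal-22 was not tested, and the main ranks, ranges and counts that rest on Normal-22 are also given without it.

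The depth was read from the smallest steps in the table, since 99.4 to 99.9% of the genes at the lowest step fell within 3% of the value of 1 fragment for their length. On a transcript of 2000 nt, 1 fragment came to 0.0372 to 0.0463 FPKM, and 1 FPKM stood for 21.6 to 26.9 fragments. A gene at 1 FPKM is therefore known from few fragments, and a gene at 0.1 FPKM from only 2.16 to 2.69 on such a transcript. An entry of 0 may also be a failed estimate, because Malat1, an abundant nuclear RNA of nearly all cells, is listed at 0 in all 4 libraries. Reads of close copies, such as the globin genes, and of genes that overlap on opposite strands may have been divided between them, so the levels of such genes are uncertain.

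Some promoters of the photoreceptor genes hold TAATCC, and those are shown first. The lines below give the 120 bases before the start of the photoreceptor genes with a mean of at least 50 FPKM that hold this motif, the core bound by OTX and CRX factors, on either strand there, and of Crx itself. Every line reads 5′ to 3′ on the strand of the gene and capitals mark TAATCC or its reverse complement GGATTA. The last line is Ciart, a repressor in the circadian clock, with its CACGTG E-boxes in capitals, the sites bound by the clock factors Clock and Arntl. The sequences are RefSeq promoters of GRCm38.p6 at chr1:87803560-87803679 (Sag, plus strand), chr14:33953883-33954002 (Rbp3, plus strand), chr11:78345464-78345583 (Unc119, plus strand), chr7:15879956-15880075 (Crx, minus strand), chr3:108092946-108093065 (Gnat2, plus strand), chr11:72037510-72037629 (Aipl1, minus strand), chr3:122044340-122044459 (Abca4, plus strand) and chr3:95882229-95882348 (Ciart, minus strand).
Sag: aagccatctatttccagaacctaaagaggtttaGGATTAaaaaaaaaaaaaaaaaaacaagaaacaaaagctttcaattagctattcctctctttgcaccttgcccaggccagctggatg
Rbp3: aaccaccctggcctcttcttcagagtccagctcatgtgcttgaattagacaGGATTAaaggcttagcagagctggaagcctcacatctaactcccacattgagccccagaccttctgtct
Unc119: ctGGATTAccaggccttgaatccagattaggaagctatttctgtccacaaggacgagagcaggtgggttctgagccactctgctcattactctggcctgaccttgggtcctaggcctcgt
Crx: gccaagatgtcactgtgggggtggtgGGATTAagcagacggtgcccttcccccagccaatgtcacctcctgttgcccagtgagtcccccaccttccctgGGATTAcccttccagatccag
Gnat2: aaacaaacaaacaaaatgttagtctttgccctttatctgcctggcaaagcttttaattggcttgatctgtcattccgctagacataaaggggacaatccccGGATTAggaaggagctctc
Aipl1: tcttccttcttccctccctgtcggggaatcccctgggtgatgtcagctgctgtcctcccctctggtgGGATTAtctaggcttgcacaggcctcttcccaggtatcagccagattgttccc
Abca4: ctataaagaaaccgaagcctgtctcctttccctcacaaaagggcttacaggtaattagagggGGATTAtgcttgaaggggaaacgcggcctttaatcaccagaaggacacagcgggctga
Ciart: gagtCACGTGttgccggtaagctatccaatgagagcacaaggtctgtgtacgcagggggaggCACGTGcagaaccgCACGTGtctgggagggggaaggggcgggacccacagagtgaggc

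Of the 47 photoreceptor genes listed, 34 had a promoter in the RefSeq table, with 37 promoters in all. TAATCC lay within the 300 bases around the start in 14 of these 37 promoters (37.8%), against 6.30% of all 18585 protein-coding promoters. In the 120 bases before the start the share was 32.4% against 2.55%. The pineal lists held TAATCC in the 300 bases of 4 of 57 promoters (7.02%), near the share of all promoters. Within these lists it was in 3 of 16 promoters of pineal transcription factors and 0 of 5 of melatonin synthesis. Among the photoreceptor genes with a mean of at least 1 FPKM, 11 promoters (37.9%) had a match in the 300 bases. All 11 had one in those 120 bases, compared with 295 of 743 for all genes at that level. The match in Unc119 began at -118, so this count depends on where the window ends. Photoreceptor genes below 1 FPKM held a match in 3 of 8 promoters (37.5%), of which 1 had it in the 120 bases. The first base of the match lay at -87 in Sag and -19 in Gnat2, and the Crx promoter held matches at -94 and -21. In the 300 bases CACGTG was found in 4 of the 12 promoters of clock output genes (33.3%), which belong to 3 genes, against 8.16% of all promoters. In the 120 bases before the start it was in 1 of 12 (8.33%) against 4.19% of all. That was the Ciart promoter, which held 3 matches. The CRE, TGACGTCA, through which cyclic AMP acts, was counted in the 300 bases. It was in 1 of 11 promoters of the genes induced at night by cyclic AMP, that of Dio2, against 2.37% of all. A match of letters is a description and no measurement of binding.

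By FPKM, small noncoding RNA held the largest share in the wild type glands. FPKM divides by transcript length, so few fragments can give a very short transcript a high value. These shares are therefore shares of FPKM and may not reflect amounts of RNA, which was not tested. On average snoRNA held 35.7 ± 13.03% of the summed FPKM, snRNA 20.98 ± 4.54% and protein_coding 20.6 ± 1.96%. Ribozyme followed at 7.66 ± 2.32%, IG_J_gene at 6.17 ± 12.3% and misc_RNA at 3.97 ± 0.804%, and lincRNA held 0.601 ± 0.216%. The share of snoRNA was 18.9, 34.4, 39.3 and 50.2% in the 4 libraries, while that of protein_coding was 23.2, 20.9, 19.6 and 18.6%. Genes with a transcript under 200 nt carried 62.3 to 71.2% of all FPKM.

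Few short genes made up most of this share, and several came and went between pools. The highest mean was that of Gm22513, a snRNA, at 70768, 202889, 120306 and 144459 FPKM, and the snRNA Gm24407 and the snoRNA Snord22 had means of 89600 ± 13544 and 78983 ± 28664 FPKM. Rpph1 and Rmrp, the RNA parts of the enzymes RNase P and RNase MRP, stood at 67812 ± 27196 and 64123 ± 17223 FPKM. Rny1, a Y RNA bound by the Ro protein, stood at 54398 ± 17774 FPKM. The snRNA Gm24265 and Gm23217 and the snoRNA Gm22988 and Snord15b were also present in every library, with means from 31639 to 59694 FPKM.

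By contrast, Ighj4, an immunoglobulin joining segment of 54 nt at chr12:113428514-113428567 (GRCm38), was listed at 369809 FPKM in Normal-11 and at 0 in the other libraries. That single entry was the whole IG_J_gene share of 24.7% in Normal-11. Snord104 was listed at 0, 81678, 0 and 185477 FPKM and Snord33 at 0, 0, 81791 and 174720 FPKM. Gm23650 appeared only in Normal-22, at 178730 FPKM, and Snord49b only in Normal-23, at 163419 FPKM. Of the 49 genes with at least 5000 FPKM in some library, 37 had a transcript under 200 nt, and the 10 of them listed at 0 in another library were all under 100 nt. No protein-coding gene behaved in this way. None of the 609 protein-coding genes with at least 100 FPKM in some library was listed at 0 in another, while 17 of 101 snoRNA and 20 of 36 snRNA genes were. The remaining description is therefore of protein-coding genes, whose summed FPKM was 346866 to 365492.

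**Figure D1:**
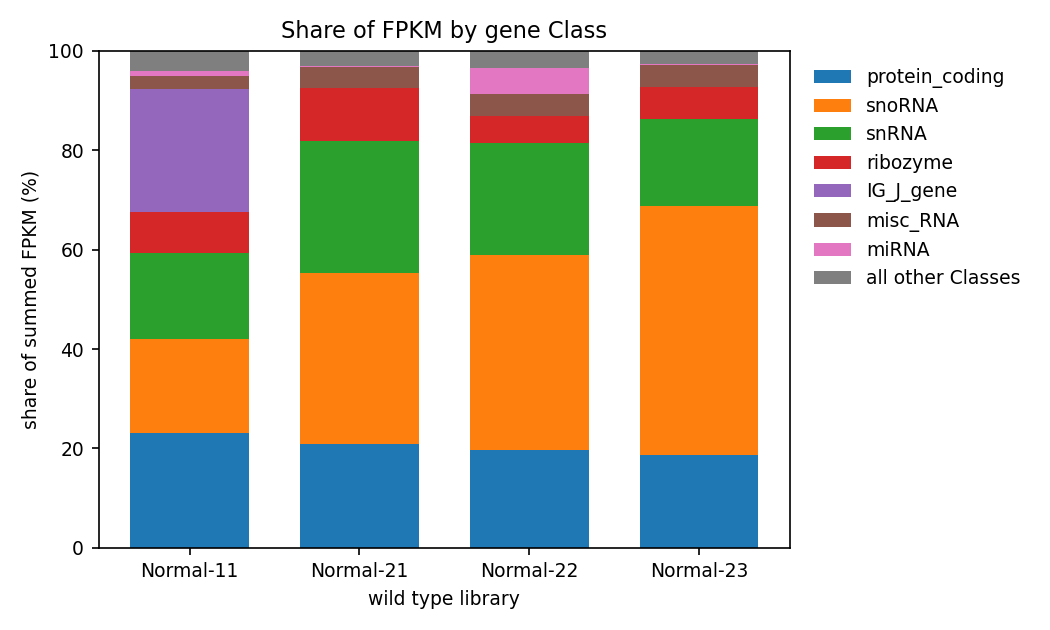
Stacked bars give the percent of the summed FPKM (y axis, 0 to 100) held by each gene Class in each wild type library (x axis). The protein_coding share lay between 18.6 and 23.2% in all libraries, whereas snoRNA ran from 18.9 to 50.2% and IG_J_gene reached 24.7% in Normal-11 alone.

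Transthyretin (Ttr), the thyroxine carrier made by the choroid plexus, was the most abundant protein-coding transcript in every library. Its levels were 15895, 18764, 9440 and 19630 FPKM, which was 2.58 to 5.41% of all protein-coding FPKM and lowest in Normal-22. The mitochondrial genes mt-Co1, mt-Cytb and mt-Nd1 followed with means of 9928 ± 1431, 5794 ± 2057 and 5700 ± 1244 FPKM. Mitochondrially encoded genes, which serve oxidative phosphorylation, held 10.5% of the protein-coding FPKM in Normal-11 and 6.03 to 6.90% in the other libraries. Enpp2, the enzyme that makes lysophosphatidic acid, ranked next with 4635, 4781, 2073 and 4981 FPKM, and mt-Nd2, mt-Nd4 and mt-Nd5 were also among the first 10 genes.

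Other leading genes served translation, secretion and transport. The elongation factor Eef1a1 stood at 1609, 2031, 1993 and 2086 FPKM and the ribosomal protein Rpl41 at 1198 ± 249 FPKM, and 84 cytosolic ribosomal protein genes together held 6.81 ± 0.442% of protein-coding FPKM. Apoe, which carries lipids, and Cst3, which inhibits cathepsins, were near their means of 1067 ± 74.2 and 1026 ± 160 FPKM in all pools. The other genes of the first 15 were Chgb, Hbb-bs and Col1a1, which are described with their lists below. The first 100 genes held 27.8 ± 1.35% of the protein-coding FPKM and the first 1000 held 55.9 ± 0.368%. Without Normal-22, 13 of the first 15 and 93 of the first 100 genes were shared with the ranking over 4 libraries.

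In all, 13059 of the 21980 protein-coding genes had a mean of at least 1 FPKM, and 12171 reached 1 FPKM in every library. At the upper end, 470 genes had a mean of at least 100 FPKM and 15 of at least 1000. At the lower end, 4187 were listed at 0 in all 4 libraries.

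Melatonin synthesis was represented by its first enzymes at high levels and its last enzymes at low levels. Tph1, the tryptophan hydroxylase (chr7:46644641-46672537), was at rank 19 with 643, 613, 1236 and 968 FPKM. Ddc, the decarboxylase, was at rank 251 with 105, 137, 247 and 192 FPKM. Both were highest in Normal-22, and without it their means were 742 and 144 FPKM. Asmt was at rank 5509 with 12.6, 14.5, 14.8 and 10.6 FPKM and differed little between pools. Aanat (chr11:116586432-116597680), which is known to be high at night, was at rank 10274 with 5.81, 7.45, 1.21 and 2.08 FPKM. Normal-11 and Normal-21 were thus high in Aanat and Normal-22 and Normal-23 low, while Tph1 and Ddc were higher in the latter pair.

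All 7 genes of the tetrahydrobiopterin cofactor that Tph1 needs were above 1 FPKM. Gch1, the first enzyme of its synthesis, stood at 66.5, 61.0, 118 and 84.2 FPKM and Qdpr, which recycles the cofactor, at 59.7, 59.0, 95.8 and 71.0 FPKM. Pcbd1, Pts, Spr, Pcbd2 and Gchfr had means from 7.97 to 57.1 FPKM. Each of the 7 was highest in Normal-22, against 40.1% of all 13059 genes with a mean of at least 1 FPKM. Among genes that handle serotonin, Maob, a monoamine oxidase, stood at 21.31, 47.4, 11.96 and 47.4 FPKM and Maoa at 6.79 ± 1.10 FPKM. The serotonin transporter Slc6a4 and the vesicular transporters Slc18a1 and Slc18a2 had means of 0.826, 0.527 and 0.546 FPKM. These are low but above the value of a single fragment.

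Transcription factors of the pineal lineage were led by Crx, at rank 212 with 138, 169, 264 and 206 FPKM. Otx2 stood at 111, 97.5, 184 and 132 FPKM, the LIM factor Lhx4 at 45.0, 61.1, 128 and 90.2 FPKM and Neurod1 at 64.4, 43.8, 98.2 and 59.8 FPKM. Lhx3, Isl2, Rax, Pax6, Bsx and Lhx9 had means from 7.39 to 37.2 FPKM, and Prdm1, Pax4 and Isl1 were below 1 FPKM. All 10 factors above 1 FPKM were highest in Normal-22, against the same 40.1%. No factor had a range of 4-fold or more between the highest and the lowest library, against 4.69% of all genes.

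Receptor transcripts of the pineal list were led by nicotinic and adrenergic receptors. Chrnb4 and Chrna3, which form a nicotinic acetylcholine receptor, stood at 94.9, 128, 314 and 197 and 51.9, 59.2, 138 and 91.8 FPKM. Adrb1, the beta receptor through which noradrenaline acts, stood at 13.3, 24.6, 45.3 and 30.4 FPKM, and Adra1a at 9.73, 9.05, 25.2 and 18.2 FPKM. Adra1b differed, with 2.76, 14.0, 3.14 and 11.1 FPKM, so that Normal-11 and Normal-22 were low and the other libraries high. Vipr2 and Adcyap1r1, receptors of the peptides VIP and PACAP, had means of 10.01 ± 4.13 and 7.46 ± 2.12 FPKM. Drd4, a dopamine receptor known to be high at night, was at 0.213 ± 0.104 FPKM. The melatonin receptors Mtnr1a and Mtnr1b were listed at 0 in all 4 libraries. Because Chrna3 and Chrnb4 are also abundant in the neighbouring habenula, its other markers were read. Tac1 and Tac2 were listed at 0 and Pou4f1, Gpr151, Nwd2 and Calb2 had means of 0.0119 to 0.219 FPKM.

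Most steps of the photoreceptor cascade after the opsin held an abundant gene. The alpha subunits of the channel did not, with Cnga3 at a mean of 2.86 FPKM and Cnga1 listed at 0. Pde6g, the inhibitory subunit of PDE6, was at rank 23 with 509, 695, 948 and 913 FPKM. Gnb3, a transducin beta subunit, was at rank 43 with 352, 468, 755 and 618 FPKM. Sag, the rod arrestin that switches off the opsin, was at rank 52 with 482, 244, 930 and 325 FPKM, a range of 3.81-fold between Normal-22 and Normal-21 that was 1.97-fold, at rank 88, without Normal-22. Gngt2, a transducin gamma subunit, followed at rank 83 with 284, 347, 376 and 496 FPKM. Pde6g, Gnb3, Sag and Gngt2 were thus among the 100 most abundant protein-coding genes of the gland.

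The outer segment and retinoid genes were also abundant. Rbp3, a retinoid carrier, stood at 140, 224, 417 and 280 FPKM, Rom1 at 151, 193, 394 and 248 FPKM and Unc119 at 160, 145, 339 and 178 FPKM. Tulp1, Aipl1, Abca4 and Prph2 had means of 147 ± 62.5, 60.1 ± 3.94, 55.0 ± 9.65 and 53.7 ± 20.01 FPKM. Rgs9, which speeds the hydrolysis of GTP by transducin, stood at 60.5, 79.4, 138 and 120 FPKM, and Guca1a and Gucy2e, a cyclase activator and a cyclase, at 25.4 ± 4.24 and 19.2 ± 7.77 FPKM. Grk1, the opsin kinase, was at 7.48, 6.67, 8.50 and 6.86 FPKM in the 4 libraries. Rpe65, the isomerase of the retinal pigment epithelium, was near 0 with a mean of 0.0619 FPKM. Recoverin (Rcvrn) and Rp1 were low as well, at means of 0.190 and 0.260 FPKM.

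Opsins were low by comparison. Opn1sw, the short wavelength cone opsin, stood at 3.88, 3.49, 19.0 and 7.07 FPKM. It was highest in Normal-22, and its mean without that library was 4.81 FPKM. Opn3, Rrh, Rgr, Opn1mw and Opn4 were below 1 FPKM, and Opn5 was listed at 0 in all 4 libraries.

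Rod and cone forms were mixed from step to step. At transducin the cone forms led. Gnat2 stood at 75.4, 80.2, 129 and 130 FPKM and its rod form Gnat1 at 0.329, 0.505, 0.488 and 0.353 FPKM, a difference of 7.61 ± 0.47 on the log2(FPKM + 0.1) scale. Gngt2 exceeded Gngt1 by 5.76 ± 0.81 and Gnb3 exceeded Gnb1 by 1.98 ± 0.13 on that scale, in every library. At the PDE6 inhibitor and at arrestin the rod forms led. Pde6g had a mean of 766 ± 205 FPKM while Pde6h had a mean of 0.0285 FPKM and was listed at 0 in Normal-11. Sag exceeded Arr3 in every library, with Arr3 at 0.893, 0.575, 8.76 and 1.07 FPKM.

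The PDE6 catalytic and channel genes were closer. Pde6c, the cone form, stood at 85.5, 111, 125 and 151 FPKM and Pde6b, the rod form, at 39.0, 56.5, 133 and 93.5 FPKM, with the cone form higher in 3 libraries and not in Normal-22. The other rod catalytic gene, Pde6a, was at 1.88 ± 0.893 FPKM. The channel subunits Cngb3 and Cngb1 stood at 50.3, 37.4, 64.6 and 58.1 and 25.3, 37.6, 48.6 and 42.7 FPKM, a difference of 0.46 ± 0.41 on the log2 scale that changed sign in Normal-21. Cnga3 was at 1.55, 3.11, 2.73 and 4.05 FPKM, while Cnga1 was listed at 0 in all 4 libraries.

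**Figure D2:**
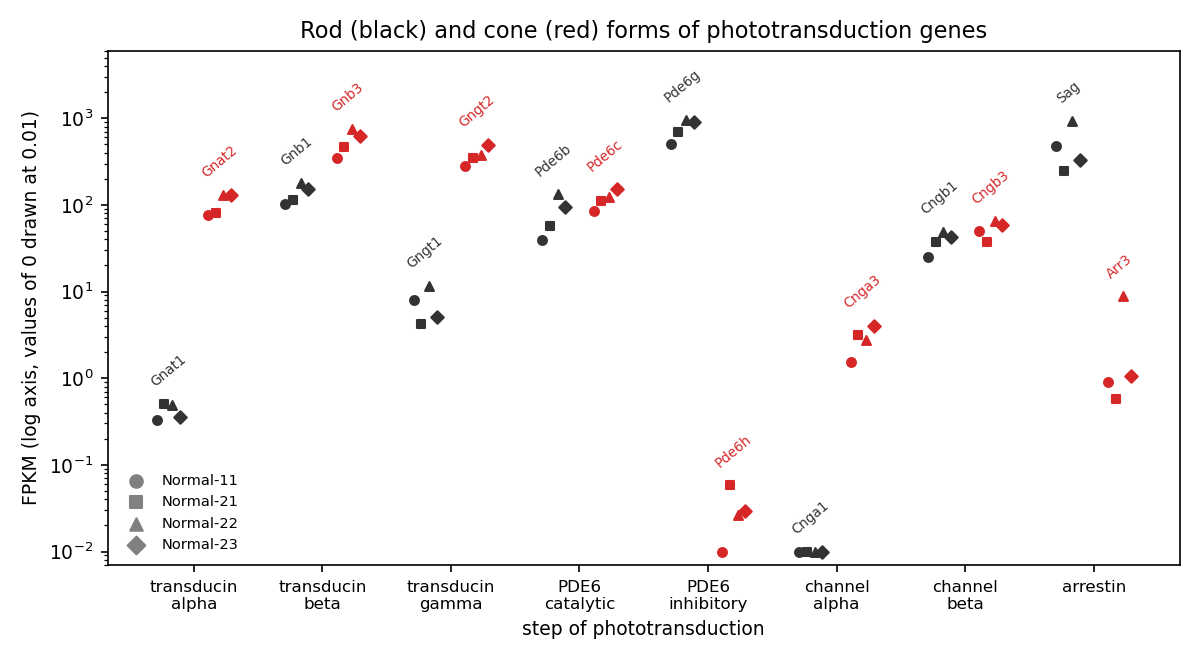
FPKM on a log axis (y axis) of rod forms (black) and cone forms (red) of phototransduction genes at each step (x axis), with a marker shape for each wild type library and values of 0 drawn at 0.01. Cone forms are higher at the transducin steps and rod forms at the PDE6 inhibitor and arrestin, and Arr3 is highest in Normal-22.

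Genes of secretion were among the strongest of the gland. Chgb, a granin of dense core vesicles, was at rank 12 with 712, 764, 2028 and 1223 FPKM, and without Normal-22 its mean was 900 FPKM. Scg2 stood at 109, 173, 249 and 284 FPKM, Chga at 72.3, 84.7, 282 and 148 FPKM and Cpe, a carboxypeptidase of prohormones, at 86.6, 79.7, 65.3 and 73.8 FPKM. Ptprn, a vesicle phosphatase homologue, stood at 23.5, 41.8, 128 and 75.1 FPKM and Scg5 at 21.96, 24.7, 80.0 and 27.5 FPKM. Pam, which amidates peptides, ran the other way with 56.0, 44.2, 12.6 and 24.2 FPKM. Of the prohormone convertases, Pcsk2 had a mean of 5.32 ± 1.79 FPKM and Pcsk1 was near 0 at 0.0540 FPKM, and Vgf and Resp18 were near 0 as well. The vesicle genes were high, with Snap25 at 246, 289, 692 and 407 FPKM and Syp at 159, 212, 451 and 322 FPKM. Cplx3 and Cplx4, complexins known from ribbon synapses, had means of 249 ± 82.4 and 75.2 ± 16.7 FPKM, and Stx3, Vamp2 and Rab3a of 137 ± 25.3, 102 ± 29.3 and 78.01 ± 25.96 FPKM.

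The median rank was 7994 for the 56 pineal genes, 8076 for the 47 photoreceptor genes and 1862 for the 36 neuroendocrine genes, among 21980. Among genes of at least 1 FPKM these medians were 4731, 1339 and 1608. The lists together held 0.711 ± 0.208% (pineal), 1.11 ± 0.324% (photoreceptor) and 0.943 ± 0.382% (neuroendocrine) of protein-coding FPKM.

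**Figure D3:**
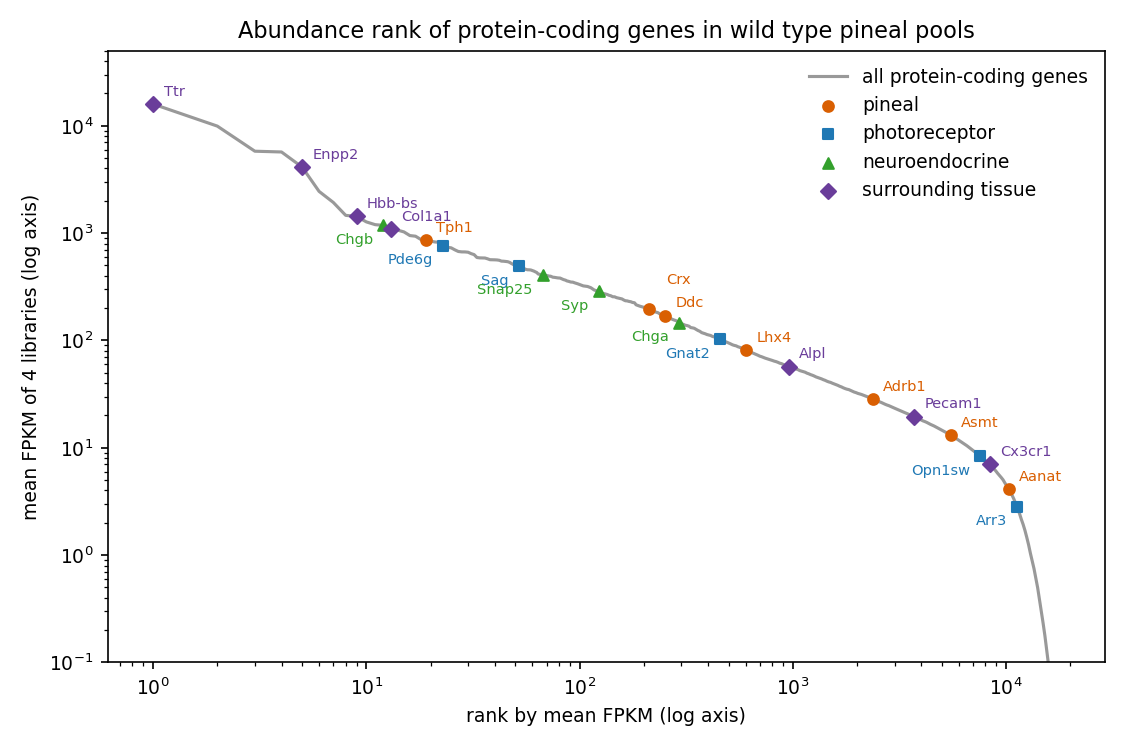
Mean FPKM over the 4 wild type libraries (y axis, log) against rank among protein-coding genes (x axis, log), with the line for all genes and markers for genes of 4 groups. Ttr is first, Tph1 is at rank 19 and Pde6g at rank 23, while Asmt and Aanat lie at ranks 5509 and 10274. Opn1sw and Arr3 lie at ranks 7583 and 11260.

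Genes of neighbouring tissues were abundant in the same pools. The 171 surrounding-tissue genes in the table held 7.87 ± 1.72% of protein-coding FPKM, mostly through Ttr and Enpp2. In bulk RNA, fewer cells of a type and less RNA per cell cannot be told apart. The choroid plexus list, whose 12 genes were all above 1 FPKM, had the best median rank, 418. Calml4, Folr1, Kcnj13, Kl and Clic6 stood at means of 161 ± 15.9, 139 ± 35.5, 132 ± 38.4, 110 ± 22.4 and 109 ± 35.6 FPKM. Folr1, a folate receptor, was at 147, 163, 87.0 and 160 FPKM, and Kl, the Klotho gene, at 130, 108, 79.1 and 121 FPKM. Of the 12 genes, 11 were lowest in Normal-22, where the background over all genes was 34.3%. Htr2c, a serotonin receptor known to be high in the choroid plexus, was read after its values had been seen, at 80.6, 56.4, 28.0 and 57.0 FPKM.

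Connective and vascular genes followed. Col1a1 and Col1a2, the chains of type I collagen, stood at 1893, 1486, 81.0 and 903 and 1203, 994, 92.0 and 626 FPKM. Among fibroblast genes of the meninges, Igf2 was at 553, 393, 159 and 221 FPKM, Dcn at 217, 260, 76.0 and 146 FPKM and Col3a1 at 414, 255, 28.7 and 105 FPKM. Endothelial genes were lower, with Emcn at 36.7, 29.4, 9.30 and 25.7 FPKM and Pecam1 at 28.1, 26.3, 6.22 and 17.5 FPKM. Rgs5, a marker of pericytes, stood at 127, 86.8, 58.3 and 74.3 FPKM and Acta2, smooth muscle actin, at 60.5, 51.0, 14.9 and 30.0 FPKM.

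Glia and immune cells gave moderate levels. The astrocyte genes Gja1, Slc1a2 and Gfap had means of 47.8 ± 19.9, 34.2 ± 8.86 and 20.3 ± 2.22 FPKM, and none of the 9 genes of that list had a 4-fold range, against 5 of 13 microglia and macrophage genes, 2 of 4 oligodendrocyte genes and 4.69% of all genes. Without Normal-22 none of these 3 lists held such a gene, against 0.914% of all genes. The complement genes C1qa, C1qb and C1qc of microglia and macrophages had means of 44.1 ± 15.6, 40.9 ± 15.5 and 31.6 ± 11.1 FPKM. Cx3cr1 was nearly equal in the 4 pools, at 6.499, 7.19, 7.03 and 7.26 FPKM, whereas Mrc1, a marker of border macrophages, was at 29.1, 23.7, 5.10 and 13.6 FPKM. Mbp, the myelin protein, was at 35.6, 24.7, 6.71 and 16.6 FPKM. Of 13 neuronal genes only Cbln1 and Slc17a7 passed 1 FPKM, and the GABA-synthesis genes Gad1 and Gad2 had means of 0.136 and 0.0155 FPKM. Of the brown fat list, Cox7a1 and Cox8b stood at 23.4 ± 7.24 and 17.4 ± 6.21 FPKM, while its defining gene Ucp1 was at 0.126 FPKM and Pck1 was listed at 0.

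The spread between the 4 pools was small for most genes. The median SD over libraries was 0.25 on the log2(FPKM + 0.1) scale, and the median range was 1.47-fold. Of the 13059 genes with a mean of at least 1 FPKM, 613 (4.69%) had a range of 4-fold or more. Normal-22 was the lowest library for 479 of the 613 and the highest for 100, and Normal-11 was the highest for 345. Under quantile normalization the share lowest in Normal-22 was 64.2% of 494 genes, against 78.1% of the 613. Without Normal-22, 120 genes (0.914%) had such a range and the median range was 1.29-fold.

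The steadiest genes had nearly equal levels in the 4 pools. Among genes with a mean of at least 100 FPKM the smallest SD was that of Ogt, which adds N-acetylglucosamine to proteins, with 104, 102, 103 and 103 FPKM. Ddx17, an RNA helicase, followed with 210, 211, 214 and 210 FPKM. Spcs1, Gdi2, Calm2, Tmem59, Rps24, Npm1, Rpl17 and Cdc42 completed the 10 steadiest genes, with ranges of 1.03-fold to 1.07-fold. Of the usual reference genes, Tbp ranged 1.20-fold and Ywhaz 1.16-fold, against 1.72-fold for Gapdh, 1.31-fold for Actb and 2.66-fold for B2m. Actb stood at 654, 661, 504 and 525 FPKM and Gapdh at 392, 546, 676 and 647 FPKM.

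Genes known from bone, connective tissue and marrow cells were frequent among the most variable genes, through low values in Normal-22. The 20 genes with the largest SD (mean of at least 5 FPKM) included Bglap2, the bone hormone osteocalcin, at 44.2, 25.2, 0.511 and 22.5 FPKM, and Mmp13, a collagenase, at 17.2, 11.1, 0.271 and 4.397 FPKM. Tnn, an extracellular matrix tenascin, stood at 16.7, 15.2, 0.0197 and 2.80 FPKM and Tnmd, a marker of tendon, at 16.4, 11.3, 0.319 and 2.95 FPKM. The neutrophil granule genes Ngp, Ltf and Camp stood at 35.3, 16.1, 0.575 and 9.46, 17.7, 6.18, 0.322 and 3.88 and 19.3, 9.98, 0.517 and 5.39 FPKM. Chil3 of myeloid cells stood at 21.5, 12.7, 0.220 and 7.75 FPKM and Tpsb2, a mast cell tryptase, at 15.1, 5.94, 0.332 and 2.06 FPKM. Sfrp2, Chrdl1, Chad, Matn4, Cilp2, Col11a1 and Col1a1 were also in this set, each lowest in Normal-22. Without Normal-22 the range of Bglap2 was 1.96-fold instead of 72.5-fold, that of Col1a1 2.10-fold instead of 23.3-fold and that of Tnn 5.79-fold instead of 140.1-fold. Of the 17 genes of the 20 that were lowest in Normal-22, 9 still had a 4-fold range without it.

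The other 4 of the 20 genes were Cga and clone-named entries, of which RP23-145I16.3 was also lowest in Normal-22. Cga, the alpha chain of the pituitary glycoprotein hormones, stood at 0.682, 1.07, 34.8 and 3.32 FPKM and was high in Normal-22 alone. Without Normal-22 its mean was 1.69 FPKM. Of the other pituitary hormone genes, Prl, Tshb and Fshb were listed at 0 in all 4 libraries. Lhb stood at 2.08, 2.32, 1.4995 and 2.53 FPKM, Pomc at 1.05, 0.956, 1.63 and 1.97 FPKM and Gh at 0, 0.199, 0 and 0.123 FPKM, none of them highest in Normal-22. RP23-79J21.3, RP23-145I16.3 and AC114005.5, clone-named entries of the annotation, stood at 8.27, 0, 23.1 and 0.221, 20.9, 1.04, 0 and 4.26 and 0.0498, 2.71, 6.77 and 12.8 FPKM.

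By list, 54 of the 126 surrounding-tissue genes above 1 FPKM had a 4-fold range, against 3 of 42 pineal, 3 of 34 photoreceptor and 4 of 31 neuroendocrine genes, and 4.69% of all genes. Without Normal-22 these counts were 14 of 129, 2 of 43, 0 of 32 and 0 of 30, against 0.914% of all genes. The median range was 3.40-fold for surrounding-tissue genes, 2.19-fold for pineal, 2.23-fold for photoreceptor and 2.54-fold for neuroendocrine genes. The 4-fold genes included 9 of 9 neutrophil, 8 of 10 osteoblast and 3 of 3 cartilage genes. They also included 4 of 4 platelet, 7 of 7 red cell and 5 of 7 B cell precursor genes. None of the 12 choroid plexus genes was among them. Without Normal-22 the counts were 4 of 11 neutrophil, 1 of 10 osteoblast and 2 of 3 cartilage genes. For platelet, red cell and B cell precursor genes they were 0 of 4, 3 of 7 and 0 of 7.

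The lists divided the libraries in opposite ways. Of the photoreceptor genes 27 of 34 were highest in Normal-22, as were 23 of 31 neuroendocrine and 31 of 42 pineal genes, against 40.1% of all genes. Normal-11 was the lowest library for 24 of the photoreceptor genes and 23 of the neuroendocrine genes, against 34.1% of all genes. For the pineal genes it was the lowest in 18 of 42. Surrounding-tissue genes were lowest in Normal-22 in 98 of 126 cases, against 34.3% of all genes, and highest in Normal-11 in 66, against 28.9%. With Normal-22 left out, Normal-23 was the highest library for 26 of 32 photoreceptor and 25 of 30 neuroendocrine genes, against 40.2% of all genes. For pineal genes it was the highest in 24 of 43. It was then the lowest for 86 of 129 surrounding-tissue genes, against 35.7%. Under 3 other scalings Normal-22 stayed the highest library for 26 or 27 of 34 photoreceptor, 23 or 24 of 31 neuroendocrine and 30 or 31 of 42 pineal genes, and the lowest for 92 of 123 to 99 of 126 surrounding-tissue genes.

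The summed FPKM of the photoreceptor lists was 2864, 3208, 5620 and 4262, and that of the neuroendocrine lists was 2169, 2502, 5359 and 3579. The meningeal fibroblast list ran in the reverse order, at 1782, 1498, 492 and 823, and so did the neutrophil list, at 482, 204, 22.7 and 131. The osteoblast list summed to 3284, 2639, 205 and 1646 FPKM. Most of this sum came in every library from Col1a1 and Col1a2, which are described above with connective genes. The part of the surrounding tissue in the levels of the pineal genes was not tested.

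Red cell genes did not follow the other blood cell genes. Hbb-bs, a beta globin, stood at 395, 1841, 3045 and 438 FPKM, which was rank 9 by the mean. Without Normal-22 its mean was 891 FPKM, at rank 17. Hba-a1 and Hba-a2, nearly identical copies whose reads may be shared, stood at 87.7, 582, 579 and 135 and 107, 415, 778 and 105 FPKM, and Hbb-bt at 90.7, 203, 1023 and 58.4 FPKM. Alas2, the heme enzyme of red cell precursors, stood at 10.8, 47.1, 126 and 12.9 FPKM. Normal-22 was highest for 6 of 7 red cell genes, against 40.1% of all genes. It was lowest for all 9 neutrophil and all 4 platelet genes, against 34.3% of all genes.

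**Figure D4:**
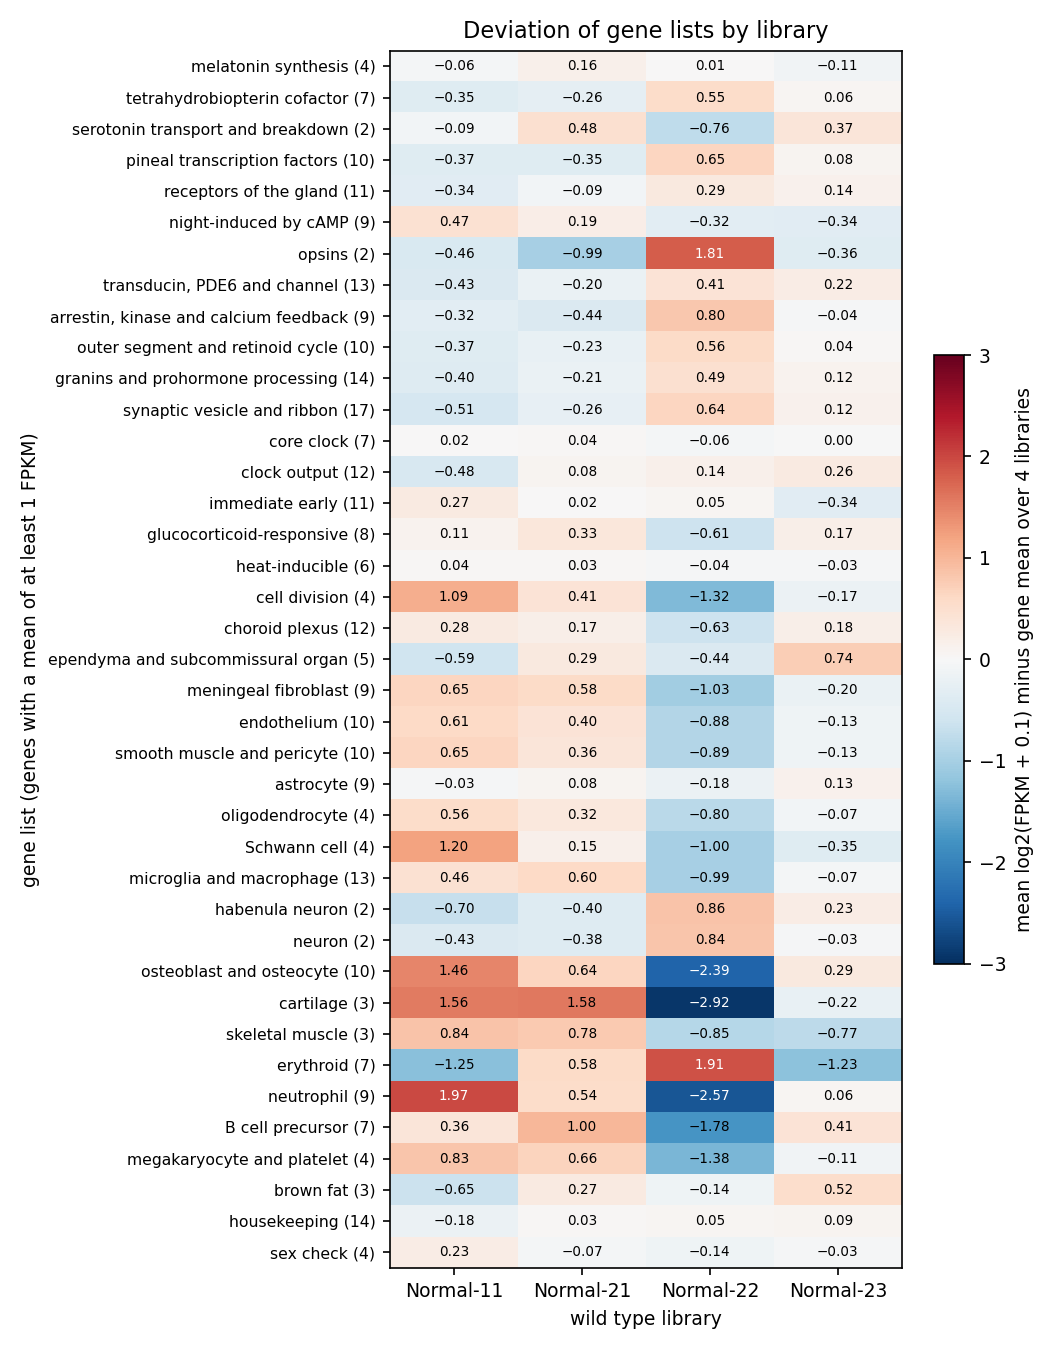
Each cell gives the mean of log2(FPKM + 0.1) minus the gene's mean over the 4 libraries, for the genes of a list (rows, number of genes in brackets) in a wild type library (columns), with blue for low and red for high. Bone, cartilage and neutrophil lists are lowest in Normal-22 (-2.39, -2.92 and -2.57), where photoreceptor and secretory lists and the red cell list (1.91) are highest.

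Genes of the circadian clock were compared because all pools were taken at the same hour. The core clock list had a summed FPKM of 99.7 to 105 in the 4 libraries, and none of its 7 genes above 1 FPKM had a 4-fold range, against 4.69% of all genes. Clock stood at 26.8, 23.4, 25.6 and 25.2 FPKM and its partner Arntl at 13.8, 9.33, 18.7 and 10.9 FPKM. The repressors Per1, Per2 and Per3 stood at 16.9, 12.6, 11.2 and 11.1, 5.29, 7.39, 3.50 and 5.77 and 15.8, 26.02, 13.3 and 19.2 FPKM, and Cry1 and Cry2 at 4.10, 3.12, 3.19 and 3.38 and 15.4, 22.95, 28.0 and 26.5 FPKM. Npas2 was highest in Normal-11, at 1.54, 0.384, 0.333 and 0.270 FPKM, with a mean below 1 FPKM.

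Output genes of the clock were lower in Normal-11 than elsewhere for 8 of 12 genes, against 34.1% of all genes. Nr1d1, which encodes the repressor REV-ERB alpha, stood at 15.4, 39.7, 36.4 and 36.2 FPKM. Dbp, an activator that is driven by E-boxes, stood at 37.0, 88.2, 66.8 and 78.9 FPKM and Tef at 40.2, 70.1, 56.2 and 69.4 FPKM. Ciart, whose promoter is shown above, stood at 1.55, 4.62, 3.59 and 7.71 FPKM and was the only gene of the list with a 4-fold range. Nr1d2, Hlf, Bhlhe40 and Bhlhe41 had means of 47.5 ± 9.13, 9.38 ± 1.59, 14.7 ± 4.14 and 12.2 ± 2.29 FPKM. Rora, Rorb and Nfil3 had means from 9.42 to 30.7 FPKM.

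Genes induced at night through cyclic AMP also differed between pools. Dio2, which activates thyroid hormone, stood at 8.85, 2.13, 0.506 and 0.704 FPKM, a range of 14.8-fold with Normal-11 highest. Fosl2 was at 9.96, 4.78, 2.69 and 3.21 FPKM, highest in Normal-11 as well. Aanat had a range of 5.75-fold, and without Normal-22 its range was 3.46-fold and its mean 5.11 FPKM. Crem, which encodes the repressor ICER, was at 35.2, 32.3, 40.1 and 24.8 FPKM, Mat2a, which makes the methyl donor of Asmt, at 110, 179, 187 and 153 FPKM, and Sik1, Pde4b, Irs2 and Pde10a had means of 2.60 to 5.69 FPKM.

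**Figure D5:**
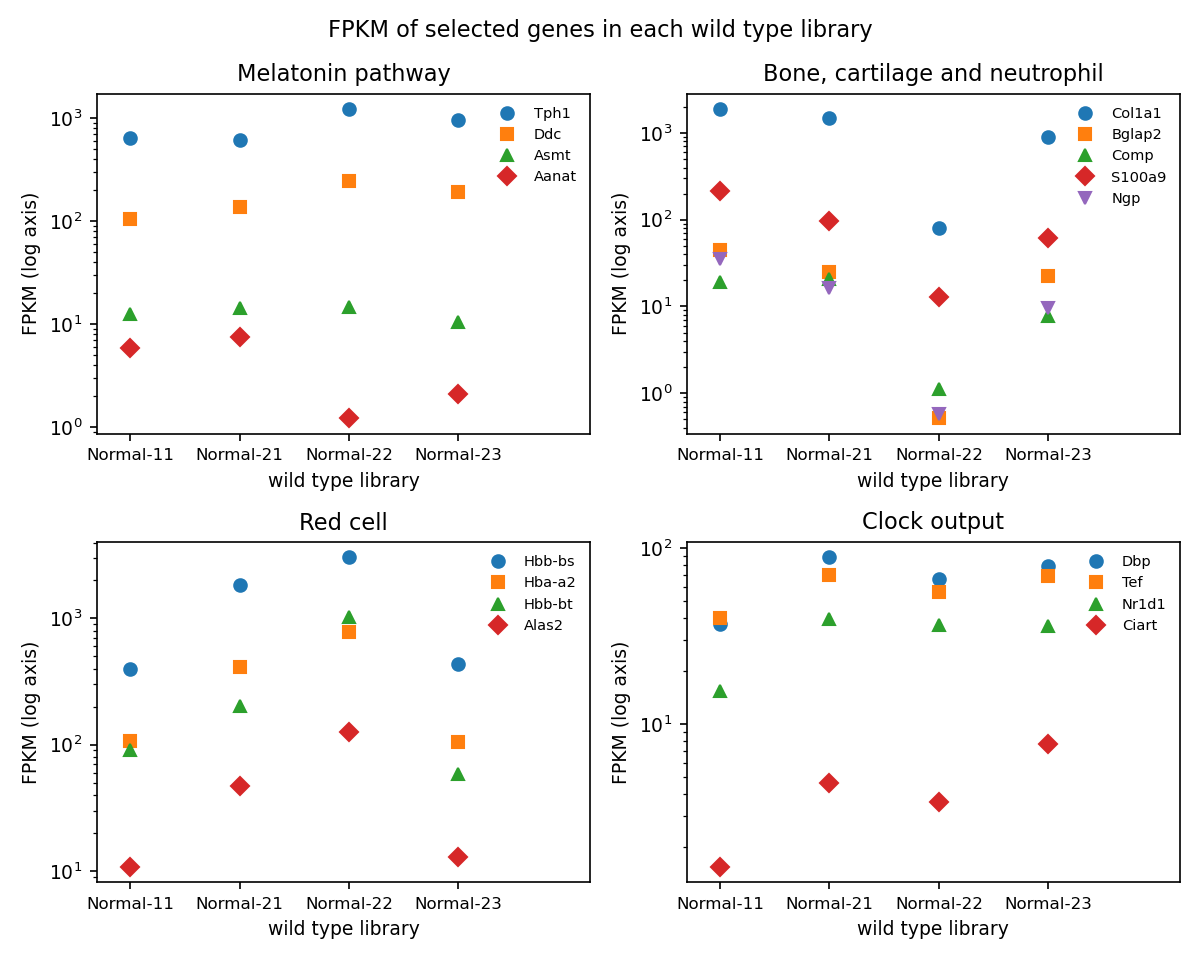
FPKM on log axes (y) in each wild type library (x) for genes of the melatonin pathway, of bone, cartilage and neutrophils, of red cells and of clock output, with a marker for each gene. Aanat is low in Normal-22 (1.21 FPKM) and Normal-23 (2.08 FPKM), bone and neutrophil genes are low and red cell genes high in Normal-22, and all 4 clock output genes are lowest in Normal-11.

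Lists of the state of the tissue differed among themselves. The immediate early genes Btg2 and Jund were the highest of their list, at 32.3 ± 7.07 and 25.9 ± 4.01 FPKM, and Fos stood at 2.23, 2.04, 1.67 and 0.918 FPKM. None of the 11 such genes above 1 FPKM had a 4-fold range, against 4.69% of all genes. Of the glucocorticoid-responsive genes, Tsc22d3 stood at 114, 137, 39.4 and 76.7 FPKM and Fkbp5 at 15.1, 31.1, 9.78 and 25.7 FPKM, and 6 of 8 were lowest in Normal-22, against 34.3% of all genes. The heat-inducible genes Hspa1a and Hspa1b were low in all pools, at 1.69 ± 0.173 and 1.47 ± 0.393 FPKM. Mki67 and Top2a, markers of dividing cells, stood at 6.15, 3.79, 0.873 and 1.78 and 4.82, 2.63, 0.431 and 1.67 FPKM, lowest in Normal-22. Of the 4 cell division genes above 1 FPKM 2 had a 4-fold range, against 4.69% of all genes. Without Normal-22 none did, against 0.914% of all genes.

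Genes that set a single library apart from all others were found for each pool. In Normal-11, Retnlg of neutrophils and the mast cell genes Cpa3 and Mcpt4 stood well above the next library, at 16.5, 5.23, 0.697 and 4.52, 18.8, 4.59, 0.944 and 2.99 and 20.1, 6.501, 1.21 and 3.63 FPKM. Nrn1l, Traip and Padi1 were lowest in Normal-11, at 2.06, 7.82, 14.6 and 15.1, 4.17, 10.5, 12.3 and 16.8 and 2.60, 6.35, 11.8 and 8.33 FPKM. In Normal-21 the largest excess was that of Gm21738, Gm10800 and Gm10801, which share near-identical sequence and are uncertain, at 3.15, 26.2, 2.66 and 3.17, 22.3, 171, 16.32 and 16.8 and 3.36, 43.8, 6.21 and 6.74 FPKM. Omd and Myoc, secreted proteins of connective tissue, followed at 17.01, 38.2, 2.38 and 8.20 and 10.5, 27.4, 5.38 and 13.6 FPKM. Car8, Gng13, Cacna2d3 and Neurod4 were lowest in Normal-21, and Neurod4, a neuronal differentiation factor, stood at 163, 101, 339 and 214 FPKM.

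In Normal-22 the excess was led by Cga, followed by AC110885.1, Cdh8, Hbb-bt and Hdhd3. Cdh8, a cadherin, stood at 2.63, 0.903, 15.9 and 1.07 FPKM and Hdhd3, a phosphatase-like protein, at 45.4, 31.8, 219 and 41.3 FPKM. In Normal-23 the excess was smaller, with Vps51 at 5.61, 5.25, 5.92 and 10.4 FPKM and Ifit1 at 7.65, 9.27, 4.36 and 14.1 FPKM. Galnt2, a glycosyltransferase of mucin-type sugars, was lowest in Normal-23, at 15.3, 12.2, 6.56 and 2.11 FPKM. Tnfsf12 and Col6a5 were also lowest there, at 10.5, 8.60, 15.6 and 4.81 and 11.8, 5.19, 2.83 and 1.65 FPKM. The table holds 2 entries named Zc3h11a that overlap in the annotation, at 28.3, 15.4, 14.2 and 31.6 FPKM and at 9.75, 21.5, 17.8 and 4.73 FPKM, so a library high in the first entry was low in the second.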

How the data were processed

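Per the labels and the study's methods, ribosomal RNA was removed from total RNA with Ribo-Zero Gold, stranded libraries were made with a TruSeq kit and paired reads of 100 cycles were taken on an Illumina HiSeq system. The authors trimmed reads with Trimmomatic, aligned them to GRCm38.p6 (mm10) with STAR and computed the deposited FPKM with Cuffnorm on GENCODE M17. Their versions and the Cuffnorm normalization are not given in the sources used here. Gene positions were taken from GENCODE M21 by gene ID and promoters from RefSeq (GRCm38.p6).

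Values were handled in Python 3.11.15 with pandas 2.3.3 and numpy 2.4.6. Variation was measured on log2(FPKM + 0.1) for protein-coding genes with a mean of at least 1 FPKM. A range is the highest over the lowest library on that scale, and 4-fold was the limit for a variable gene. The calculation of ranges was tested on simulated data.

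The gene lists and their members were chosen with earlier results of these data known. Of 393 list entries 391 had a row in the table. The named genes are the 15 most abundant of the protein-coding and of all genes, the leaders of the 6 largest Classes, up to 6 members per list with those listed at 0, all genes of the melatonin, core clock, housekeeping and sex lists, the 20 most and 10 least variable genes, and 5 extremes per library, and some of these genes are not reported here. Gene families, rod and cone pairs, motifs, pituitary hormones and further list members were chosen after values were seen. No covariate or test was used. The alternatives were pseudocounts of 0.01 and 1, other minimum levels, median-ratio, total and quantile scaling, ranking by the median and leaving out each library.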

Additional observations from a re-analysis of the deposited data

Results flagged for a closer look

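Of 272 genes named above, 20 (7.35%) had a library whose gap to the nearest of the others, divided by the range of the 4 libraries on the log2(FPKM + 0.1) scale, was above Dixon's critical value for 4 samples. Of all 13059 protein-coding genes with a mean of at least 1 FPKM, 630 (4.82%) did. Chance gives this in about 5% of such groups, so the number of genes is not itself a result. The ratio was 0.940 for Xist, which is high in Normal-22 (13.3 FPKM), and 0.910 for Kdm5d, which is low there (9.04 FPKM).

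Other genes for which Normal-22 stood low were Enpp2 (0.918), Folr1 (0.840), Pcsk2 (0.917) and Bglap2 (0.843), with 2073, 87.0, 2.66 and 0.511 FPKM there. Genes for which it stood high were AC110885.1 (0.931) at 2.06, 2.24, 14.4 and 2.36 FPKM and Ddx17 (0.903), whose whole range was only 1.02-fold. Gm23650 and Resp18 each had a ratio of 1.00, because they were listed at 0 in the other libraries.

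Normal-11 stood low for Nr1d1 (0.903) and for the snoRNA Gm22988 (0.929), and high for the snoRNA Snord15b (0.840). It also stood high for Ighj4 and Gpr151 (1.00 each), which were listed at 0 elsewhere. Normal-21 stood high for Gm21738 (0.926) and Gm10800 (0.866), whose sequences are near copies, and for Pou4f1 (1.00) at a level near that of a single fragment. Normal-23 stood low for Opn3 (0.893) at 0.304 FPKM, and high for Snord49b (1.00).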

How the results depend on the processing

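No paired analysis was possible because the values come from 1 group and no test was made. The protein_coding share of 20.6% was 62.7% when Classes of short RNAs were left out, and the shares of protein_coding, snoRNA and snRNA were 19.7 to 21.2%, 30.8 to 41.3% and 19.1 to 22.2% with each library left out. Of protein-coding genes 13059 had a mean of at least 1 FPKM, and 12958 to 13123 did with each library left out. Ranked among genes of at least 1 FPKM, the median rank was 4731 for pineal, 1339 for photoreceptor and 5032 for surrounding-tissue genes, against 7994, 8076 and 8522 among all. That of neuroendocrine genes was 2573.5 when ranked by the median FPKM and 1688.5 to 2733 with each library left out, highest without Normal-22. The other lists ran from 7374 to 8408 (pineal), 7637 to 9133 (photoreceptor) and 7946 to 9318 (surrounding).

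The 613 genes of 4-fold range became 252 with a pseudocount of 1, 1304 with no filter, 236 at a minimum mean of 5 FPKM, 374 without Normal-11 and 120 without Normal-22, over a range of 120 to 609 with each library left out. The 3 pineal genes became 1, 5, 1 and 5 (pseudocount of 1, no filter, minimum mean of 5 FPKM, quantile normalization) and 2 to 3 with a library left out. The 3 photoreceptor genes became 1 at a minimum mean of 5 FPKM, 5 under quantile normalization and 0 to 3 with a library left out. The 4 neuroendocrine genes became 0 to 4, with 1 without Normal-11 and 0 without Normal-22. The 54 surrounding-tissue genes became 34 at a minimum mean of 5 FPKM and 14 to 52 with a library left out, lowest without Normal-22. Of single genes, 29 dropped below 4-fold without Normal-22, and 10 without Normal-11. Depth limits genes below 1 FPKM, and the cause of these shifts was not tested.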

Other observations

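Several long noncoding genes were among the better expressed genes of the gland. The imprinted neighbours Meg3 and Rian stood at 187, 268, 538 and 379 and 301, 302, 507 and 402 FPKM, both highest in Normal-22. H19, another imprinted RNA, which lies beside Igf2, ran the other way at 410, 341, 61.2 and 134 FPKM. Gas5, a host gene of snoRNAs, stood at 116, 135, 127 and 135 FPKM and Tug1 at 36.8, 33.5, 32.95 and 31.5 FPKM, with little spread between pools. The antisense entry Rab26os stood at 45.9, 59.8, 80.1 and 75.5 FPKM and RP24-388N11.3 at 54.3, 59.4, 97.0 and 74.9 FPKM. The levels of antisense genes are uncertain, because no strand setting for the counting was stated.

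Families outside the lists were counted after values were seen, and 59.4% of all protein-coding genes had a mean of at least 1 FPKM. Of 94 potassium channel genes 39 had a mean of at least 1 FPKM, led by the choroid plexus genes Kcnj13 and Kcne2, followed by Kcnh6 at 28.5, 36.0, 106 and 66.4 FPKM. Of 26 voltage-gated calcium channel genes 15 reached 1 FPKM. They were led by Cacna2d4, an auxiliary subunit known from photoreceptors, at 27.3, 45.2, 76.2 and 69.1 FPKM, and Cacna1f, the pore subunit of photoreceptor synapses, stood at 8.87, 18.1, 18.7 and 23.5 FPKM. Of 36 adenylyl cyclase and phosphodiesterase genes 32 reached 1 FPKM, and Adcy2 was the highest cyclase at 44.1, 64.6, 81.0 and 94.3 FPKM. Of 14 serotonin receptors only Htr2c and Htr2b did, and Htr2b was at 1.35 ± 0.0880 FPKM. Of 19 GABA receptor genes 7 did.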
